A study of Mus musculus with 51 samples.

Results

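*Id1*, *Id2*, *Id3*, *Id4*, *Smad6*, *Smad7*, *Bambi*, *Msx1* and *Msx2* are widely described as direct target genes of BMP signalling. The genes were taken by symbol, and all 9 were found in each of the 9 deposited expression tables, which hold 24538 genes each. No binding data were analysed here, so that the word direct, as used here, rests on general knowledge and not on a measurement. The study itself measured binding of phosphorylated Smads and lists *Id1* among its putative direct targets activated by Smads.

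The study differentiated mouse embryonic stem cells (mESCs) towards cardiac mesoderm with Bmp4 and measured RNA by strand-specific sequencing of total RNA. Wild type (WT) cells of the F1G4 mESC line were sampled as aggregates before Bmp4 (ES) and on days 1, 2 and 3, with 2 samples per stage. F1G4 cells lacking *Eomes* (*Eomes* KO), *T* (*T* KO) or both (*Eomes*/*T* dKO) were sampled on days 2 and 3, and *Smad4* WT and *Smad4* KO cells of the strain 129S/SvEvxC57BL/6 on days 1 and 2, with 1 sample per line and day by the labels. The study's legends describe RNA values of these lines as averages over replicates, and whether a further replicate entered the KO and *Smad4*-line columns could not be settled. Each KO value is therefore 1 value of unknown replication, and its fragment estimate and counting interval hold only if the column is a single library or a simple pool. All cells of days 1 to 3 received 20 ng/ml Bmp4, feeder cells having been removed beforehand.

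The KO lines were grown from single clones. The F1G4 deletions, made with Cas9 nickase, removed the promoter and first exon, and the dKO line was made from the *Eomes* KO line. *Smad4* KO cells had lost a floxed first exon after transient Cre expression in the conditional cells that served as their WT. A difference between a KO line and its WT is therefore also a difference between a clone and its parent, and these cannot be told apart.

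Expression is given as FPKM, the number of fragments per kilobase of transcript scaled to the number of mapped fragments, so that levels can be compared between genes. Each table held 1 value per condition, pooled by the authors where the labels give 2 samples, and the 9 tables held 14 distinct conditions. No spread between replicates could be computed and no p-value is given. Following the study's rule, genes with FPKM above 1 in either condition were examined, and a gene was called lower or higher when its log2 ratio, without pseudocount, passed −1 or 1.

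In the 10 columns of KO and *Smad4*-line cells, 96.4% to 97.3% of low values, multiplied by transcript length, lay within 0.15 of a whole multiple of a single step, which gave an estimate of the fragments behind each value at a depth of 18100000 to 37400000 fragments on Cuffdiff's normalized scale. Intervals given below are exact 95% Poisson or binomial intervals on these estimates and cover counting error only. The 4 F1G4 WT columns showed no such step (50.3% to 73.8%), and no interval was set for them.

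BMP ligands bind receptor kinases at the cell surface, which phosphorylate Smad1 and Smad5. The phosphorylated Smads join the common partner Smad4 and bind DNA at GC-rich elements and at short GTCT elements. The genes switched on include the Id genes, whose products bind E proteins and keep them from DNA, a set of feedback inhibitors of the pathway itself (*Smad6*, *Smad7*, *Bambi*) and the homeobox genes *Msx1* and *Msx2*. In the early embryo BMP activity of this kind marks the posterior epiblast and the streak, where mesoderm forms.

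RefSeq promoter sequences (GRCm38.p6) were matched for *Id2*, *Id3*, *Id4*, *Smad6*, *Msx1* and *Msx2*. The 250 bases upstream of the start are printed for 4 of them, 5′ to 3′ on the strand of the gene, to show the 2 promoters that hold the GC-rich letters GGCGCC, 1 that holds only the short element, and 1 with neither. Capitals mark GGCGCC, which reads the same on both strands, and GTCT or its complement AGAC.
Id2: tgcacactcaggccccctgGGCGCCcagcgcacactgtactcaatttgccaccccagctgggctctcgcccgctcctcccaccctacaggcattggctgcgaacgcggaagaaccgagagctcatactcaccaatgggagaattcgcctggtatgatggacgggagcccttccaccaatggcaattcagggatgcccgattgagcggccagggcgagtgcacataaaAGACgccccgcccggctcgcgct
Id4: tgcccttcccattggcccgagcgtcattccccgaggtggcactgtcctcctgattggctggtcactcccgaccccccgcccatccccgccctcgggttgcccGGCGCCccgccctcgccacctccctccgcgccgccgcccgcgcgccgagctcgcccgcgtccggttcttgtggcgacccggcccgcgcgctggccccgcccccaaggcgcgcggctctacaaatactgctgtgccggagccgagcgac
Id3: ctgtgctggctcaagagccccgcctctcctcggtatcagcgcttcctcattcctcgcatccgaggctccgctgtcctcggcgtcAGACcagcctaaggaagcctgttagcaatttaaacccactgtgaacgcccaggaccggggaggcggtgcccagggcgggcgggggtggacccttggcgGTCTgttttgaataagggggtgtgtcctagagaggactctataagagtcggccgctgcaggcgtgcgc
Msx1: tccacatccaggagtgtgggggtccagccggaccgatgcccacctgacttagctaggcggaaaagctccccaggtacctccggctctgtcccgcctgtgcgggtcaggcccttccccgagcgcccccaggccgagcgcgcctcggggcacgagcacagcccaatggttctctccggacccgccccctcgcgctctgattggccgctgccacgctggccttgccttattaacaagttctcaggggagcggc

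The *Id2* sequence (chr12:25096093-25096342, minus strand) had GGCGCC starting 231 bases upstream and AGAC 23 bases upstream of the start. In *Id4* (chr13:48260866-48261115, plus strand) GGCGCC began 148 bases upstream, and no GTCT or AGAC was present. *Id3* (chr4:136143572-136143821, plus strand) carried AGAC at 166 and GTCT at 68 bases upstream, while *Msx1* (chr5:37824586-37824835, minus strand) held none of these letters in the window. Over all 32851 promoters of that length, 9.59% held GGCGCC and 82.9% held GTCT or AGAC, against 2 and 4 of the 6 matched genes. The longer composite of GGCGCC, any 5 bases and GTCT, searched on both strands, was found in 0.07% of promoters and in 0 of the 6. The GC content of the 4 printed windows was 62.8% (*Id2*), 75.6% (*Id4*), 62.8% (*Id3*) and 68.0% (*Msx1*), with a median of 52.4% over all promoters.

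The first question was how the 9 genes behaved in WT cells once differentiation with Bmp4 was started. At that step the aggregates were also washed, moved into differentiation medium and plated on fibronectin. No cells without Bmp4 were sampled after ES, so that Bmp4 and these other changes cannot be told apart. In F1G4 WT cells the Id genes were highest on day 1 and the Msx genes on day 3. Between ES and day 1, 6 of the 9 were called higher and 0 lower, where 7.7% of the 11028 genes examined were higher and 5.84% lower. Their median log2 ratio was 1.83, against −0.06 over all genes examined. In bulk RNA, fewer cells of a type and less RNA per cell cannot be told apart, which holds for every level below.

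*Id1* (chr2:152736251-152737410), an inhibitor of basic helix-loop-helix factors, was at FPKM 22.4 in ES, 79.7 on day 1, 52.1 on day 2 and 29.2 on day 3. *Id2*, of the same function, was at 8.81, 83.7, 63.2 and 25.4. *Id3* was at 14.9, 52.6, 40.4 and 40.9. All 3 were called higher on day 1, with the largest ratio for *Id2* (log2 3.25, against 1.83 for *Id1* and 1.82 for *Id3*), and from day 2 to day 3 only *Id2* of these 3 was called lower (log2 −1.31). *Id4*, of the same family, was at 3.69, 5.39, 3.58 and 1.96, and none of its stage ratios was called. The summed FPKM of the Id genes went from 49.8 in ES to 221 on day 1, 159 on day 2 and 97.5 on day 3, and *Id4* made up between 2.01% and 7.42% of it.

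*Smad6*, an inhibitory Smad that competes for the BMP receptor Smads, was at FPKM 0.618, 2.59, 4.10 and 4.62 from ES to day 3, a log2 ratio of 2.07 by day 1. *Smad7*, an inhibitory Smad that also acts on the Activin and Nodal branch, was at 15.4, 11.9, 14.0 and 8.20. It was the only one of the 9 genes whose WT level was highest in ES. *Bambi*, a receptor-like protein without a kinase domain, varied least of the 9 over the stages, at 1.53, 2.03, 2.59 and 2.04, and was not called at any stage.

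*Msx1*, a homeobox repressor of the posterior mesoderm and many other BMP-exposed tissues, was at FPKM 0.0647, 4.65, 5.44 and 9.84. *Msx2*, its paralog, was at 0.0165, 1.13, 3.27 and 9.21. Their log2 ratios between ES and day 1 (6.17 and 6.10) ranked 3rd and 4th from the highest of 11016 genes, a size that rests on ES values near 0. With a pseudocount of 1 the log2 ratios were 2.41 and 1.07. *Msx2* went on to be called higher from day 1 to day 2 (log2 1.53) and from day 2 to day 3 (1.49), whereas *Msx1* stayed below the threshold at both steps (0.23 and 0.85).

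Calls between the other stages are set beside the shares of all genes examined, and whether they differ from those shares was not tested. From day 1 to day 2 the count was 1 higher (*Msx2*) and 0 lower, where 7.18% and 4.13% of 11260 genes were higher and lower. From day 2 to day 3, 1 was higher (*Msx2*) and 1 lower (*Id2*), where 6.14% and 4.06% of 11394 genes were. Between ES and day 3, 5 of the 9 were higher (*Id2*, *Id3*, *Smad6*, *Msx1*, *Msx2*) and 0 lower, against 18.5% and 12.6% of 11554 genes. Nascent mesoderm markers (*T*, *Eomes*, *Mixl1*, *Mesp1*, *Fgf8*, *Wnt3*) moved over the same days, their summed FPKM being 1.39, 6.40, 84.3 and 441, while the 6 pluripotent markers summed to 1796, 927, 905 and 618. Their part in the result was not tested.

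**Figure D1:**
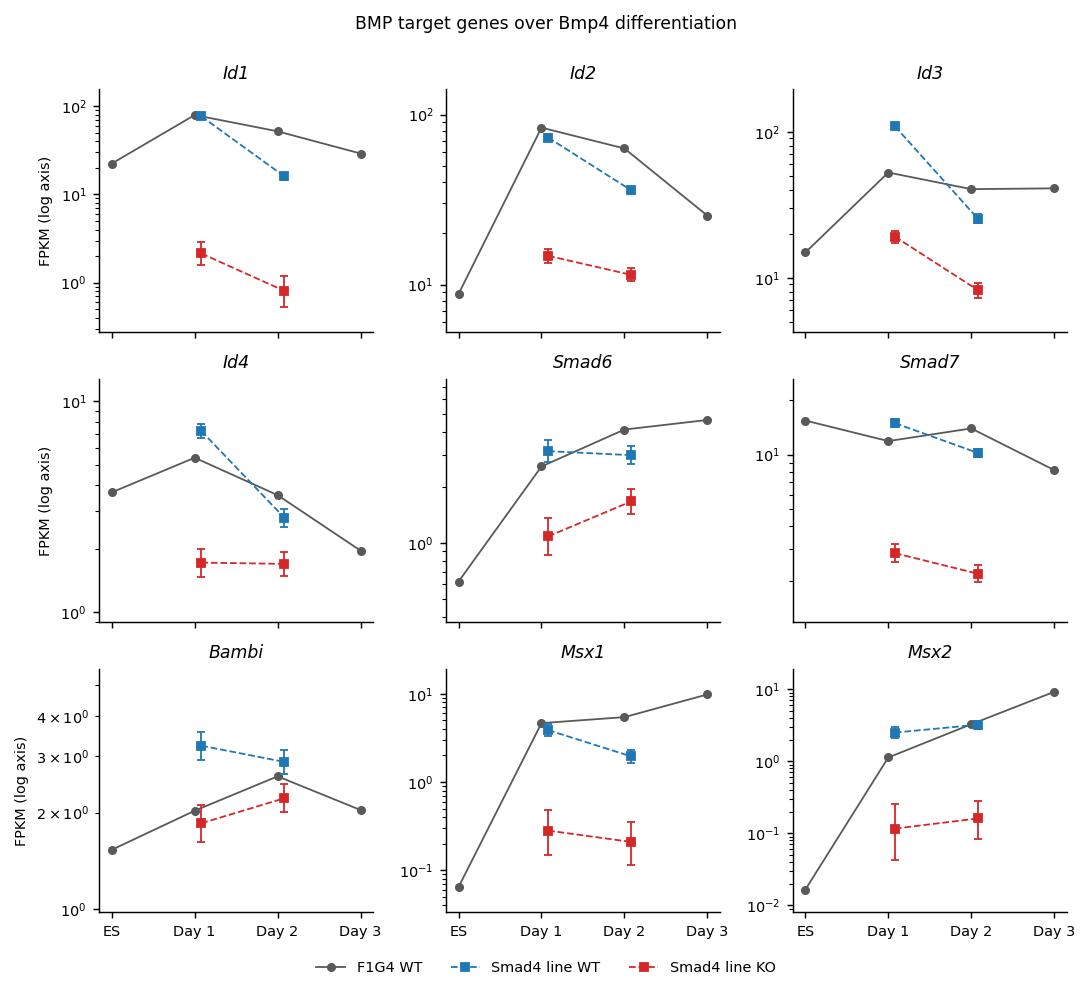
FPKM (log axis) of each of the 9 genes against stage, for F1G4 WT cells (grey circles) and for WT (blue squares) and KO (red squares) cells of the *Smad4* line, with bars giving 95% counting intervals where the fragment number could be estimated. *Id1* to *Id4* were highest on day 1 in F1G4 WT cells, *Msx1* and *Msx2* on day 3, and every *Smad4* KO value lay below the WT value of its line on the same day.

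The *Smad4* KO comparison asked which of these genes differed in cells without Smad4. On day 1, 8 of the 9 were called lower in KO than in WT cells and 0 higher, where 2.41% of the 11232 genes examined were lower and 2.36% higher. On day 2, 6 were called lower and 0 higher, where 3.21% and 2.56% of 10999 genes were. The median log2 ratio of the 9 was −2.40 on day 1 and −1.65 on day 2, against −0.00 and −0.01 over all genes examined. All 18 counting intervals lay wholly below 0. The FPKM of *Smad4* itself was 33.8 for WT and 39.4 for KO on day 1 and 39.3 and 46.8 on day 2. It does not check the deletion, since a value over the whole gene does not show the loss of 1 exon. The study screened for homozygous KO clones by PCR and reports far fewer binding sites of phosphorylated Smads in the KO cells.

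*Id1* had the lowest log2 ratio of all 11221 genes with a ratio on day 1. It was at FPKM 77.1 for WT and 2.14 for KO cells, or an estimated 1699 and 48 fragments, a log2 ratio of −5.17 (counting interval −5.61 to −4.75). On day 2 it was at 16.1 and 0.806 (log2 −4.32, interval −4.95 to −3.75) and ranked 15th from the lowest of 10990 genes. The remaining level was 2.78% of WT on day 1 and 5.01% on day 2.

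The other Id genes kept more of their level. *Id2* was at FPKM 73.2 for WT and 14.8 for KO on day 1 (log2 −2.31) and on day 2 at 35.9 and 11.4 (−1.65). *Id3* was at 109 and 19.1 on day 1 (−2.51) and on day 2 at 25.4 and 8.23 (−1.62). *Id4* was at 7.22 and 1.71 on day 1 (−2.07), and on day 2, at 2.80 and 1.69, it was not called (−0.73, interval −0.97 to −0.49). The summed FPKM of the Id genes was 266 for WT and 37.7 for KO on day 1 and 80.2 and 22.1 on day 2. In the KO cells *Id2* and *Id3* made up most of what was left.

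Among the feedback inhibitors *Smad7* had the lowest log2 ratio on both days, at FPKM 14.9 for WT and 2.84 for KO on day 1 (log2 −2.40, interval −2.58 to −2.22) and on day 2 at 10.2 and 2.18 (−2.22, interval −2.40 to −2.05). *Smad6* was at 3.13 and 1.09 on day 1 (−1.53) and on day 2 at 2.98 and 1.68, when it was not called (−0.83). With a pseudocount of 1 the day 1 ratio of *Smad6* was −0.99. *Bambi* was not called on either day, at 3.23 and 1.85 on day 1 (−0.80, interval −1.05 to −0.56) and on day 2 at 2.88 and 2.22 (−0.38, interval −0.57 to −0.18). *Bambi* retained 57.3% and 77.0% of its WT level, the highest share of the 9 genes on both days.

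With *Id1*, the Msx genes had the lowest ratios of the 9 on both days. *Msx1* was at FPKM 3.88 for WT and 0.282 for KO on day 1 (177 and 13 fragments, log2 −3.78, interval −4.72 to −2.97) and on day 2 at 1.96 and 0.210 (133 and 14 fragments, −3.22). *Msx2* was at 2.51 and 0.116 on day 1 (128 and 6 fragments, −4.43, interval −5.90 to −3.27) and on day 2 at 3.22 and 0.161 (245 and 12 fragments, −4.32). Their ratios rest on few KO fragments, and with a pseudocount of 1 they lay between −1.93 and −1.29, all still called. Ranked from the lowest, *Msx2* was 7th and *Msx1* 14th of 11221 genes on day 1.

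All 9 genes had a smaller log2 ratio in size on day 2 than on day 1, and for 4 of them (*Id2*, *Id3*, *Id4*, *Smad6*) the counting intervals of the 2 days did not overlap. Whether the days differ beyond biological replicates was not tested. The tables of the 2 days were normalized separately. Set side by side on that condition, WT cells of the line had lower levels on day 2 for 8 of the 9 genes, *Id1* going from 77.1 to 16.1 and *Id3* from 109 to 25.4, and *Msx2* being the exception. KO cells had lower levels for 6 of the 9, and *Smad6*, *Bambi* and *Msx2* were higher on day 2 than on day 1.

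**Figure D2:**
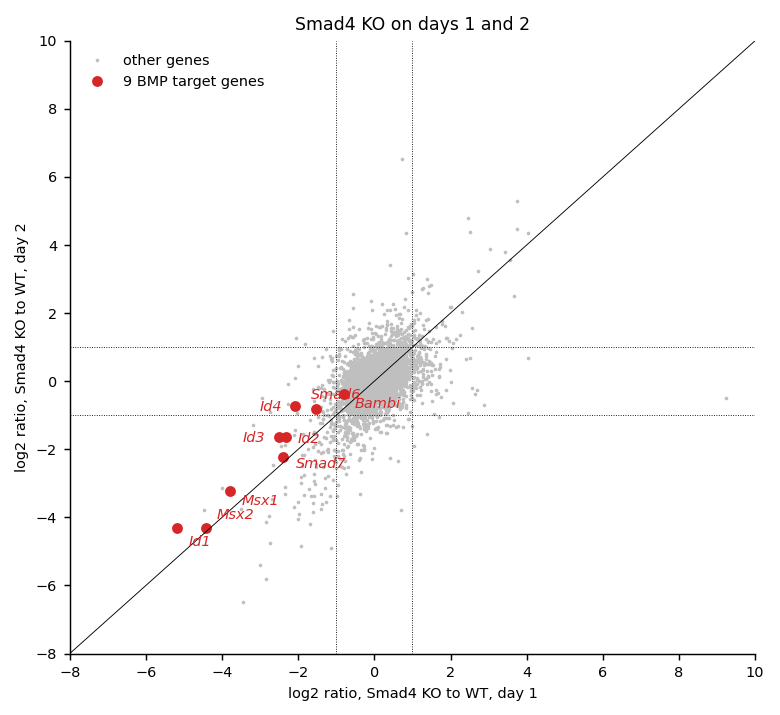
Log2 ratio of FPKM in *Smad4* KO to WT cells on day 1 (horizontal) and day 2 (vertical) for the 10731 genes examined on both days, the 9 BMP target genes in red and all others in grey. Dotted lines mark log2 ratios of −1 and 1 and the solid line equal ratios; *Id1*, *Msx2* and *Msx1* lie farthest to the lower left of the 9, and *Bambi* lies between the dotted lines.

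Other components of the pathway were mostly not called. None of the 5 intracellular regulators (*Smurf1*, *Smurf2*, *Ski*, *Skil*, *Tob1*), of the 3 examined BMP Smads (*Smad1*, *Smad5*, *Smad4*) or of the 3 E proteins bound by Id proteins (*Tcf3*, *Tcf4*, *Tcf12*) was called on either day, and list medians lay between −0.26 and 0.19. The 1 BMP ligand examined, *Bmp7*, was at FPKM 1.46 and 1.30 on day 1 and 2.02 and 2.09 on day 2. Of the 5 receptors examined only *Acvr1*, a type I receptor, was called, at 1.57 for WT and 0.724 for KO on day 1 (log2 −1.12), and it was not called on day 2 (1.33 and 1.51). Among the secreted antagonists *Fst*, which encodes the Activin-binding follistatin, was lower on both days, at 12.3 and 4.77 on day 1 (−1.37) and 31.5 and 2.57 on day 2 (−3.61), and *Twsg1* was not called.

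Other genes known to respond to BMP were mostly low. Of 8 listed, 4 were examined on each day, and the transcription factor genes *Gata2*, *Tbx3* and *Hand1* were called lower on both. *Hand1* was at FPKM 1.94 for WT and 0.507 for KO on day 1 and at 3.50 and 0.122 on day 2, a log2 ratio of −4.84. *Tbx3* was at 2.19 and 0.307 on day 1 and at 1.88 and 0.106 on day 2 (−4.15), and *Gata2* at 1.62 and 0.142 and at 1.49 and 0.111 (−3.75). *Hey1* went the other way on day 2, at 0.850 in WT and 2.93 in KO cells (1.78).

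Several genes of the Nodal branch, which shares Smad4, were also called lower. *Tdgf1*, a Nodal co-receptor, was at FPKM 126 for WT and 17.5 for KO on day 1 (log2 −2.86) and on day 2 at 187 and 3.30 (−5.82). *Nodal*, the ligand, was at 25.6 and 5.96 on day 1 (−2.11) and at 32.4 and 2.53 on day 2 (−3.68). The Nodal antagonists *Lefty1* and *Lefty2* had log2 ratios of −1.84 and −2.76 on day 1 and of −3.34 and −3.96 on day 2, and *Gsc*, a homeobox gene, was called on day 2 alone (1.14 and 0.123, log2 −3.20), its FPKM on day 1 being below 1 in both. Of the WNT targets, 1 of 3 examined was called on day 1 (*Lef1*, higher, 2.66 and 7.01) and 3 of 5 on day 2 (*Axin2*, *Sp5* and *Nkd1*, lower). The difference between these genes and the BMP targets was not tested.

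Cell type markers moved with the *Smad4* KO result. The 6 nascent mesoderm markers summed to FPKM 13.5 for WT and 3.13 for KO on day 1 and to 86.1 and 4.08 on day 2, with 3 of 3 and 5 of 5 examined called lower. The 3 neural markers (*Sox1*, *Pax6*, *Pou3f2*) summed to 1.22 and 7.37 on day 1 and to 0.698 and 14.2 on day 2, with *Sox1* and *Pax6* called higher on both days. The 4 trophoblast markers summed to 9.89 and 6.28 on day 1 and to 10.5 and 3.47 on day 2, with *Cdx2* and *Gcm1* of 3 examined called lower on day 1 and *Krt7*, the 1 examined, on day 2. The 6 pluripotent markers summed to 1022 and 856 on day 1 and to 864 and 795 on day 2, sums made up mostly of *Pou5f1*. Of the 5 examined, *Nanog* was called lower on both days (log2 −1.85 and −2.18), and on day 2 *Esrrb* (−2.01) and *Zfp42* (−1.38) were lower and *Sox2* was higher (1.76). Their part in the result was not tested. The 5 fibroblast markers, which would show feeder cells, summed to between 0.529 and 3.41 over the 14 conditions.

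The 2 WT lines show how far these genes differed between lines and tables. The WT cells of the *Smad4* line were set beside F1G4 WT cells across tables that were normalized separately. On day 1, 2 of the 9 genes were called, both higher in the *Smad4* line, where 10.8% of 11177 genes were called in either direction. On day 2, 2 were called, both lower, where 5.15% of 11119 genes were called. On day 1 *Id3* (52.6 in F1G4, 109 in the *Smad4* line, log2 1.05) and *Msx2* (1.13 and 2.51, 1.15) differed. On day 2 *Id1* (52.1 and 16.1, −1.70) and *Msx1* (5.44 and 1.96, −1.48) differed. The *Smad4* KO ratios of *Id1*, *Msx1* and *Msx2* were larger in size than any of these 18 differences between WT lines on both days, as was that of *Smad7*. Those of *Bambi* and *Smad6* on both days and of *Id2*, *Id3* and *Id4* on day 2 were not. All of these ratios are without pseudocount. The KO ratios of *Msx1* and *Msx2* rest on few fragments and were smaller in size with a pseudocount of 1. The WT lines were not compared with that pseudocount.

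*Eomes* KO, *T* KO and dKO cells were compared with F1G4 WT cells to ask what the genes did when *Eomes*, *T* or both had been deleted. Comparisons of the same day share their WT samples, so their values are set side by side without any measure of overlap. *Eomes* was at FPKM 9.42 in WT and 2.42 in *Eomes* KO cells on day 2, and day 3 gave 20.3 and 0.276. *T* was at 44.8 and 6.64 in WT and *T* KO cells on day 2, and day 3 gave 323 and 3.00. These values cover the whole gene and not only the deleted promoter and first exon. The study reports that the deleted genes were absent as transcript and protein from differentiated KO cells, by RT-PCR and western blotting. The gene left intact was called too, except for *T* in *Eomes* KO cells on day 2. There *T* was at 22.3 against 43.1 in WT (log2 −0.95). On day 3 *T* was called lower in *Eomes* KO cells, at 4.46 against 334 (−6.23). In *T* KO cells *Eomes* was called higher on day 2, at 24.7 against 9.81 in WT (log2 1.33). On day 3 it was called lower there, at 4.83 against 19.6 (−2.02). In dKO cells *Eomes* was at 1.24 and 0.346 and *T* at 2.77 and 1.93 on the 2 days.

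On day 2 the median log2 ratio of the BMP targets was above 0 in all 3 lines. In *Eomes* KO cells 4 of the 9 were called higher and 0 lower, where 3.35% of 11226 genes were higher and 4.17% lower. In dKO cells 2 were higher and 0 lower, where 3.48% and 4.5% of 11195 genes were. In *T* KO cells 2 were higher and 1 lower, where 5.7% and 9.93% of 11359 genes were. The median log2 ratio of the 9 was 0.74 in *Eomes* KO, 0.83 in dKO and 0.55 in *T* KO cells, against −0.01 over all genes in each of the 3. On the TPM scale (FPKM rescaled so that all columns have the same sum) every log2 ratio shifts by −0.22, −0.41 and 0.12 in these comparisons, and the medians stay above 0. On that scale 2 genes were called in *Eomes* KO (*Id3* and *Msx2*) and 1 in dKO cells (*Msx2*). The share of all genes called on that scale is not given.

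*Msx2* was the gene called higher in all 3 lines on day 2. It was at FPKM 3.23 to 3.37 in the WT columns of these tables and at 10.5 in *Eomes* KO (log2 1.69), 10.4 in *T* KO (1.63) and 9.77 in dKO cells (1.60). The KO counting intervals, 9.66 to 11.3, 9.45 to 11.5 and 8.97 to 10.6, overlapped one another and lay above WT. Between the 2 WT lines the largest difference was −1.70, for *Id1* on day 2, and *Msx2* itself differed by 1.15 on day 1. Among ratios of the F1G4 KO lines, only those of *Msx1* on day 3 in *Eomes* KO and dKO cells were larger in size than −1.70. *Msx1* was at 5.60 in WT and 13.8 in *T* KO cells (1.31), but at 6.86 in *Eomes* KO (0.35) and 7.82 in dKO cells (0.54), neither called.

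On day 2 *Id1* was called in opposite directions in *Eomes* KO and *T* KO cells. It was at FPKM 105 in *Eomes* KO and 101 in dKO cells, against 51.4 and 51.3 in WT (log2 1.03 and 0.98), but at 26.0 in *T* KO cells against 53.4 (−1.04). *Id3* was at 94.7 in *Eomes* KO (1.24), 84.4 in dKO (1.08) and 50.9 in *T* KO cells (0.29), with WT between 39.9 and 41.6. *Id2* was not called in any of the 3, at 104, 88.2 and 45.4 with ratios of 0.74, 0.50 and −0.51. *Id4* was at 7.87 in *Eomes* KO (1.15), 6.82 in dKO (0.94) and 5.83 in *T* KO cells (0.66). The *Id1* calls in *Eomes* KO and *T* KO cells and the *Id3* call in dKO cells were lost both on the TPM scale and after trends with transcript GC content and length were removed, the log2 ratios then being 0.81 and 0.82, −0.92 and −0.88, and 0.67 and 0.83. The *Id4* call in *Eomes* KO cells was lost on the TPM scale (0.93) and with a pseudocount of 1 (0.96).

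The feedback inhibitors were not called in any F1G4 KO line on day 2. *Smad7* was at FPKM 17.1 in *Eomes* KO, 20.5 in *T* KO and 14.2 in dKO cells, with WT between 13.8 and 14.4. *Smad6* was at 4.71, 6.99 and 4.06, with WT between 4.06 and 4.24. *Bambi* was at 4.12, 3.94 and 4.55, with WT between 2.57 and 2.68, and its log2 ratios of 0.68, 0.55 and 0.83 were positive in all 3 lines.

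*Msx1* was the gene called in all 3 lines on day 3. It was lower in each, at FPKM 1.32 in *Eomes* KO (log2 −2.96), 3.72 in *T* KO (−1.41) and 2.17 in dKO cells (−2.23), with WT between 9.90 and 10.2. The estimated KO fragments were 62, 269 and 85, and the 3 counting intervals (1.01 to 1.69, 3.30 to 4.20 and 1.74 to 2.69) did not overlap. *Msx2*, its paralog, was at 14.6, 11.4 and 15.0 with WT between 9.28 and 9.58, none of them called (0.61, 0.30 and 0.66). Across the separately normalized tables of the 2 days, *Msx1* was higher on day 3 than on day 2 in WT cells and lower in all 3 KO lines, while *Msx2* was higher on day 3 in WT, *Eomes* KO and dKO cells. In *T* KO cells its counting intervals of the 2 days, 9.45 to 11.5 and 10.7 to 12.2, overlapped.

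In *Eomes* KO cells on day 3 *Msx1* was the 1 gene called lower and 0 were higher, where 9.01% of 11629 genes were lower and 7.39% higher. On the TPM scale, which shifts every log2 ratio of this comparison by 0.28, 4 were called, *Msx1* lower and *Id4*, *Smad6* and *Bambi* higher (1.17, 1.19 and 1.04). The share of all genes called on the TPM scale is not given. In *T* KO cells 1 was lower and 1 higher (*Id3*), where 3.92% and 2.12% of 11239 genes were. In dKO cells 1 was lower and 2 higher (*Id4*, *Bambi*), where 5.53% and 5.51% of 11473 genes were. The medians of the 9 were 0.35, 0.54 and 0.66, against −0.04, −0.01 and −0.03 over all genes.

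*Id1*, *Id2* and *Id3* were lower in *Eomes* KO than in *T* KO cells on day 3. *Id3* was at FPKM 32.7 in *Eomes* KO (log2 −0.38), 93.4 in *T* KO (1.18) and 49.1 in dKO cells (0.21), with WT between 41.3 and 42.7. *Id1* was at 20.3, 42.9 and 40.5 with WT between 29.4 and 30.4, and *Id2* at 21.4, 39.7 and 41.7 with WT between 25.7 and 26.6, none called. *Id4* was called in dKO cells, at 4.46 against 2.02 (1.14), a call lost with a pseudocount of 1 (0.85), and was at 3.75 in *Eomes* KO and 3.51 in *T* KO cells. The summed Id level was 97.5 in WT, 78.3 in *Eomes* KO, 179 in *T* KO and 136 in dKO cells. These sums are not on the TPM scale, which shifts log2 ratios to WT by 0.28, −0.06 and −0.11 in the 3 lines.

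*Bambi* reached its highest level of all 14 conditions in dKO cells on day 3, at FPKM 5.86 against 2.12 in WT (log2 1.47). In *Eomes* KO and *T* KO cells it was at 3.59 (0.75) and 2.97 (0.53). *Smad6* was at 9.06 in *Eomes* KO cells, its highest level of all conditions, against 4.82 in WT (0.91), and at 4.00 and 3.81 in *T* KO and dKO cells. *Smad7* was at 10.9, 16.2 and 15.0 with WT between 8.27 and 8.56, and its log2 ratios of 0.35, 0.97 and 0.82 were not called.

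**Figure D3:**
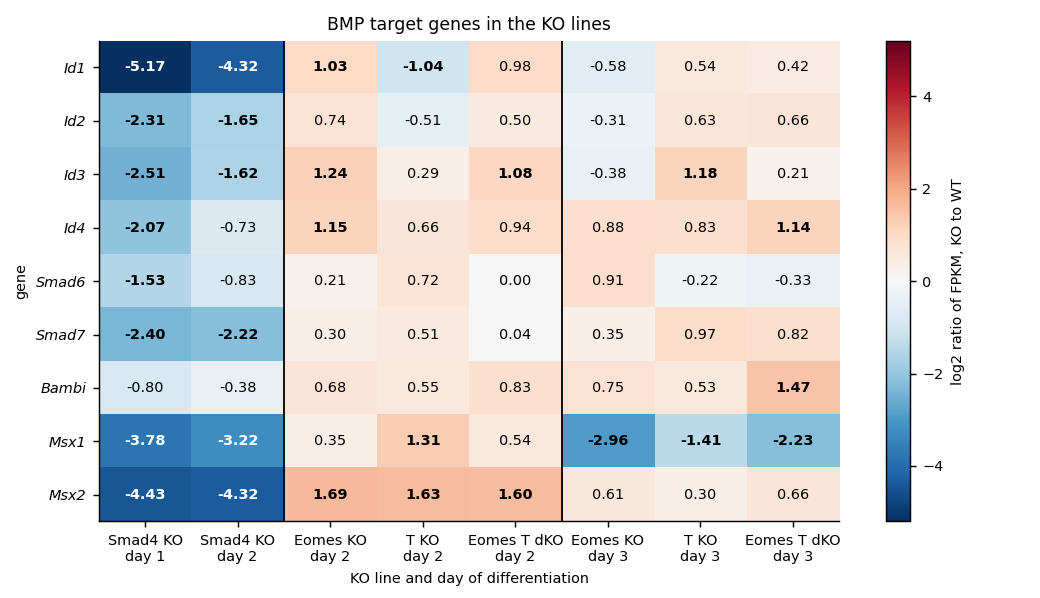
Log2 ratio of FPKM in KO to WT cells for the 9 genes (vertical) in the 8 KO comparisons (horizontal), blue for lower and red for higher, with bold figures for ratios past −1 or 1. The *Smad4* columns are blue throughout, whereas the *Eomes* and *T* columns are mostly pale, apart from *Msx2* on day 2 (1.60 to 1.69) and *Msx1* on day 3 (−2.96 to −1.41). Scattered other ratios there also pass −1 or 1, the largest being *Bambi* in dKO cells on day 3 (1.47) and *Msx1* in *T* KO cells on day 2 (1.31).

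Markers moved in these lines as well. The nascent mesoderm markers summed on day 2 to FPKM 41.1 in *Eomes* KO, 57.2 in *T* KO and 20.1 in dKO cells against 84.3 in WT, and on day 3 to 8.99, 32.2 and 22.7 against 441, with *Mesp1* at 0 in the 3 lines on day 3. Neural markers summed to 11.8, 4.84 and 9.45 against 0.334 on day 2 and to 6.45, 1.06 and 10.5 against 0.258 on day 3. Trophoblast markers summed to 9.47, 11.7 and 11.9 against 11.5 on day 2 and to 71.3, 80.1 and 116 against 54.3 on day 3. On day 3 the members moved apart, since *Cdx2* was called lower in all 3 lines and *Krt7* higher in dKO cells only, and the medians of the 2 examined were −1.78, −1.57 and −0.36. Pluripotent markers summed to 998, 817 and 1196 against 905 on day 2 and to 383, 465 and 609 against 618 on day 3. The medians of the 5 examined were 0.09, 0.55 and 0.32 on day 2 and 0.73, 0.08 and 0.09 on day 3, and the calls were all higher, *Sox2* in *Eomes* KO and *Sox2* and *Esrrb* in *T* KO cells on day 2. Their part in the *Msx1*, *Msx2* and Id results was not tested. *Bmp4* itself was not examined on day 2 and was lower in all 3 lines on day 3, at 1.25, 1.14 and 1.30 with WT between 2.71 and 2.80.

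**Figure D4:**
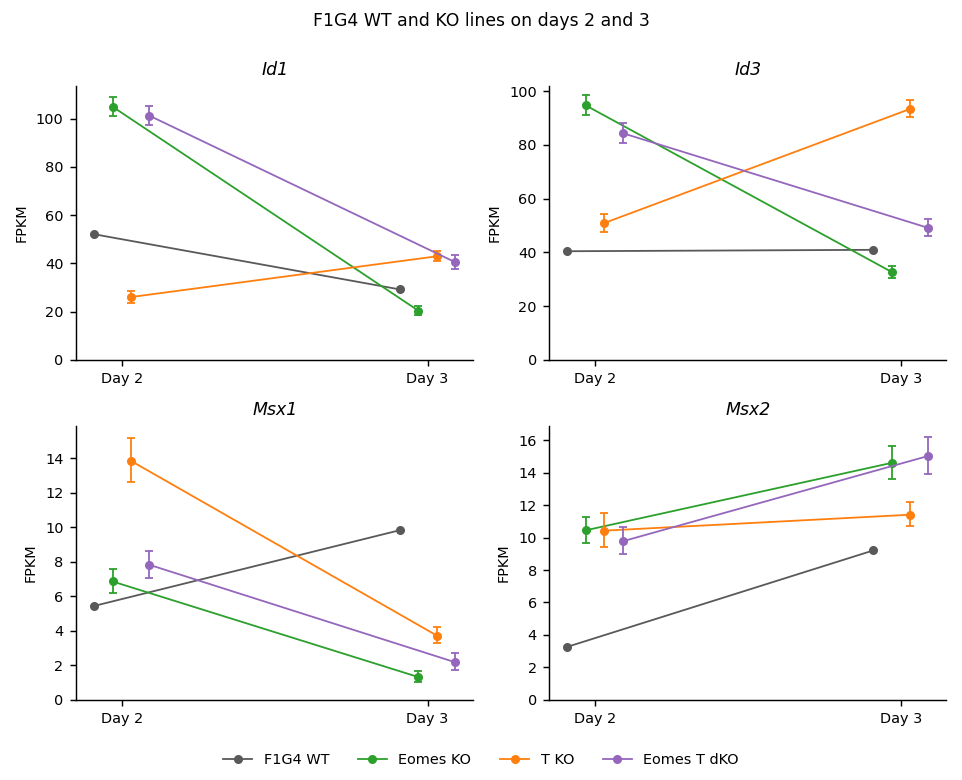
FPKM of *Id1*, *Id3*, *Msx1* and *Msx2* on days 2 and 3 in F1G4 WT (grey), *Eomes* KO (green), *T* KO (orange) and *Eomes*/*T* dKO cells (purple), with bars giving 95% counting intervals for the KO columns. *Msx1* lies below WT in all 3 KO lines on day 3 only, *Msx2* lies above WT on both days, and on day 2 *Id1* and *Id3* are highest in *Eomes* KO and dKO cells.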

How the data were processed

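RNA was measured in 18 samples by strand-specific sequencing of total RNA (ScriptSeq). Following the study's methods and the submitters' processing notes, the authors trimmed reads with cutadapt 2.9, aligned them to mm10 with HISAT2 2.1.0 and calculated FPKM with Cuffdiff 2.2.1 with bias and multiple-read correction and no effective length correction, which can move levels of genes with close copies. The deposited FPKM values are 1 per condition, in 9 tables normalized separately. Cuffdiff gave the WT columns of the KO tables a factor of 0.989 to 1.04 relative to the time course. From these values log2 ratios without pseudocount were computed for genes with FPKM above 1 in either condition and called past −1 or 1, with no test. Fragment numbers were estimated from the step of low values and RefSeq transcript lengths (for *Id1*, which has 3 transcripts, the shortest), and depth was 18100000 to 37400000 fragments on the normalized scale where a step was found. Calculations used scipy 1.17.1, pandas 2.3.3 and numpy 2.4.6 under Python 3.11.15, with matplotlib 3.10.9 for plots. Calling and step estimation were tested on simulated counts with counting error only and changes far past the threshold. Calls near the threshold were not checked in that way.

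Genes named are the 9 targets, the genes of 9 pathway lists called in a *Smad4* KO comparison, the KO targets, and, for each target, the 3 genes with the most similar pattern. Uncalled genes are named for some of the lists only. The 9 targets and the lists were chosen with earlier results of these data known. Groups follow the labels. Alternatives were pseudocounts of 0.1 and 1, no FPKM minimum or one of 5, TPM, median centring, the WT column of the time course and, chosen after seeing the data, removal of trends with transcript GC content and length over 20 groups each. ChIP-seq and ATAC-seq samples were not analysed here. A gene of the pathway lists, and the count and median of its list, are not reported here.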

Additional observations from a re-analysis of the deposited data

Results flagged for a closer look

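*Msx1* in *T* KO cells was picked out because it was called in opposite directions on the 2 days. Its log2 ratio of *T* KO to WT was 1.31 on day 2, from FPKM 5.60 and 13.8, and −1.41 on day 3, from 9.90 and 3.72. *T* KO held an estimated 484 and 269 fragments of *Msx1* on the 2 days. Both calls held on the TPM scale (1.43 and −1.47) and after correction for transcript GC content and length (1.11 and −1.43). The difference between the days was not tested, since there is 1 value per condition.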

How the results depend on the processing

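No paired analysis was possible because the tables hold 1 pooled value per condition and no column per replicate, and for the same reason no replicate could be left out. Of 776 log2 ratios recomputed under the alternatives, 762 kept their side of the threshold, 10 lost it, 4 gained it and 0 calls were reversed. Of 90 counts of called genes, 82 stayed within 1.5 times the first count. With an FPKM minimum of 5, 5 genes were called in *Smad4* KO on day 1 (5 examined), 3 between ES and day 1 (5 examined) and 0 between days 1 and 2 (6 examined), fewer being examined. On the TPM scale 2 were called in *Eomes* KO on day 2, 1 in dKO on day 2 and 4 in *Eomes* KO on day 3. With GC and length trends removed, 1 was called in dKO on day 2 and 2 in *Eomes* KO on day 3. Counts under these alternatives are given without the share of all genes called. They describe only how far the first counts depend on the setting. TPM shifts every log2 ratio by 0.13 between ES and day 3 and by −0.11 in dKO on day 3. The *Smad4* KO calls on day 2, and all directions there, held under each alternative in which a gene was examined. Single clones and 1 value per condition limit every comparison, and the counting intervals do not cover variation between cultures. In *Smad4* KO cells 6 to 26 fragments lie behind the values of *Msx1* and *Msx2* on both days and of *Id1* on day 2.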

Other observations

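Over the 14 conditions, the pattern of log2(FPKM + 0.1) of the 4 Id genes was alike, with Pearson's r between 0.77 and 0.86 for each pair. *Id1* was closest to *Smad7* among the 9 genes (r = 0.89), and *Smad6* to *Msx2* (r = 0.93), while *Id4* and *Smad6* were least alike (r = 0.39). The search covered 9201 genes, a number that includes the 9 targets. Outside the targets *Dusp9*, a phosphatase of MAP kinases, was the gene most like both *Smad6* (r = 0.95, then *Zfp36l3* at 0.94 and *Unc5b* at 0.92) and *Msx2* (r = 0.94). *Msx1* was most like *Wnt3* (r = 0.89), *Cdx2* (0.86) and *Wnt5b* (0.86), and *Msx2* also like *Wnt8a* (0.93) and *Smad1* (0.92). *Tdgf1*, the Nodal co-receptor gene, was among the 3 closest for both *Id1* (0.86) and *Smad7* (0.89). The others closest to *Smad7* were *Grb10* (0.84) and *Nme6* (0.83), and those closest to *Id1* were *Tpd52l1* (0.88) and *Phlda2* (0.86). *Id2* was most like *Spryd7* (0.79), *Cyp20a1* (0.77) and *Dmc1* (0.76), and *Id3* most like *Cyp20a1* (0.87), *Degs1* (0.85) and *Phlda2* (0.84). *Id4* was most like *4930447C04Rik* (0.86), *Mtfr1l* (0.83) and *Tex11* (0.81), and *Bambi* most like *Snora17* (0.93), *Emc3* (0.92) and *Snora64* (0.92). These values are descriptions, since the conditions share lines, days and WT samples.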
